A study of Mus musculus with 50 samples.

Results

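The genes of sterol synthesis and its control were followed across 50 RNA-seq libraries of microglia, the resident macrophages of the brain, in which the histone deacetylase genes Hdac1 and Hdac2 had been targeted. The set comprised 29 genes chosen by name, of 48526 in the count table, and all 29 were found there by symbol. They fell into 8 genes of the mevalonate and isoprenoid arm, 11 of the squalene and sterol arm, 5 that control the SREBP transcription factors, and 5 of sterol transport, uptake control and storage.

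Microglia were sorted by flow cytometry from mouse brains. In the constitutive model, knockout mice were HDAC1/2-loxP/loxP CX3CR1-Cre, their controls were HDAC1/2-loxP/loxP without Cre, and neither was treated. Animals of that model were sampled at birth (P0; 3 knockouts, 4 controls), at 2 weeks (14 days; 2 knockouts, 4 controls) and at 6 weeks (45 days; 3 knockouts, 4 controls). In the inducible model, knockouts were HDAC1/2-loxP/loxP CX3CR1-CreERT2, with HDAC1/2-loxP/loxP controls, and both were exposed to tamoxifen through 3 mg given to the pregnant dam on embryonic day 13. Those animals were sampled on embryonic day 16 (E16; 3 knockouts, 4 controls), at P0 (4 knockouts, 3 controls), at 2 weeks (4 and 4) and at 6 weeks (4 and 4). In both models Cre is driven by Cx3cr1, a gene that other cells of the monocyte and macrophage lineage also use, and all groups carry the floxed alleles.

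Cells build cholesterol from acetyl-CoA: the mevalonate arm yields isoprenoids, and the sterol arm turns these into squalene, lanosterol and cholesterol. The transcription factor SREBP2, from Srebf2, switches most of these enzymes on when membranes are short of sterol, after SCAP has carried it out of the endoplasmic reticulum, where the INSIG proteins otherwise hold it. Surplus sterol acts the other way: LXR receptors raise efflux pumps and Mylip (also called IDOL), a ubiquitin ligase that removes the LDL receptor. NPC2 and NPC1 pass cholesterol out of lysosomes, SOAT1 esterifies it for storage, and STARD4 carries it between membranes. Microglia take up lipid-rich debris, so they meet sterol from outside as well as from their own synthesis.

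RefSeq promoter windows (GRCm38.p6, 250 bases before to 50 after a start) were given for 24 of the 29 genes. No window was given for Fdps, Fdft1, Sqle, Stard4 and Npc1. The windows were searched on both strands for the sterol regulatory element core TCACNCCAC, an E-box form TCACGTGA, CCAAT and GGGCGG, and no match of one motif overlapped a match of another in these genes. The sterol regulatory element core was found in 1 of 24 genes, Hmgcs1, whose match TCACCCCAC starts at -137, and in 1.44% of all 27025 genes with a window. The E-box form was found in 0 of 24, against 1.12% of all genes. CCAAT was in 22 of 24 and GGGCGG in 22 of 24, against 41.1% and 38.2% of all genes. The windows of 3 genes that rose in the constitutive model at P0 (Hmgcs1, Srebf2, Mvk) and of Mylip, which fell the most there, are shown with the element core and CCAAT, on either strand, in capitals:
Hmgcs1 (chr13:119690101-119690400, plus strand): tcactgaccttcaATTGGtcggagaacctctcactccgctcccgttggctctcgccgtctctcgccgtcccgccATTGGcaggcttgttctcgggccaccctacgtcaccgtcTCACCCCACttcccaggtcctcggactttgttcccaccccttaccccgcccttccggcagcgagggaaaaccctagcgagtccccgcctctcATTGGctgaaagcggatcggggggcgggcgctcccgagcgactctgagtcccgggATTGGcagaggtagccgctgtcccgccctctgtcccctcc
Srebf2 (chr15:82147019-82147318, plus strand): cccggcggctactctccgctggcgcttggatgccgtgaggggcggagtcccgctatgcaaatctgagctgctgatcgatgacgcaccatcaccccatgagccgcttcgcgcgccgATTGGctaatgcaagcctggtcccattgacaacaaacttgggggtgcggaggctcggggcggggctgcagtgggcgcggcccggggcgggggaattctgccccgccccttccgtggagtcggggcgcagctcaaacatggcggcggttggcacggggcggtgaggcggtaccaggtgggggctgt
Mvk (chr5:114444019-114444318, plus strand): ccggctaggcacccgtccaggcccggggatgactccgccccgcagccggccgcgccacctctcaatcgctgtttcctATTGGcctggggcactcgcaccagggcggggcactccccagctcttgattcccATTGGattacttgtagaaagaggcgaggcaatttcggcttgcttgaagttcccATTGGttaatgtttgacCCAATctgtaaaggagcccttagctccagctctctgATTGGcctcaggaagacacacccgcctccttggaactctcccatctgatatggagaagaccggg
Mylip (chr13:45389492-45389791, plus strand): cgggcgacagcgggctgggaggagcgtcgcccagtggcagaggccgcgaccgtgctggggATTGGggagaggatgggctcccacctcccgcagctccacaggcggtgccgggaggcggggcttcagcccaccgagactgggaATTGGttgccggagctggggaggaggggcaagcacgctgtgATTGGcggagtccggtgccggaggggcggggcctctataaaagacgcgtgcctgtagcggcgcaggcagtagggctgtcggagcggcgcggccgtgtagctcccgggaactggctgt
Hmgcs1 had 4 CCAAT matches beside its element core, Mvk had 5, Mylip had 3 and Srebf2 had 1. A match is a run of letters and was not tested as a binding site.

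Levels are given in CPM, counts per 1000000 counts of the library, and library totals ran from 11050277 to 29651179 counts. Hdac1 ran at 7.31 to 9.45 CPM and Hdac2 at 48.9 to 73.9 CPM in inducible knockouts at P0, against 12 to 14.9 and 132 to 145 CPM in their controls. The libraries labelled constitutive knockout at P0 did not show such a drop: Hdac1 ran from 8.86 to 35.7 CPM and Hdac2 from 124 to 191 CPM, against 11.4 to 13.6 and 126 to 164 CPM in controls. Which exons the alleles delete is not stated, and reads from the others can remain in knockouts of either model, which carry floxed alleles of the same name. The cause of the missing drop in the libraries labelled constitutive knockout at P0 was not tested. Of those libraries, the one labelled knockout animal 68 had Hdac1 above every control. The library labelled constitutive knockout animal 380 (6 weeks, Hdac1 92.2 CPM) and the one labelled inducible knockout animal 1 (E16, Hdac2 316 CPM) also went against their labels. The Hdac2 level of constitutive knockout animal 89 (2 weeks), 70.1 CPM, lay within its controls, at 59.8 to 71.3 CPM. Results for the 29 genes in comparisons that use any of these 4 libraries are given with and without it. Counts of other gene lists are given with all libraries alone. Summed microglia markers (10 genes, among them P2ry12 and Tmem119) were at 1079 to 3719 CPM in the constitutive knockout libraries at P0, against 17841 to 22113 CPM in controls, with all 10 genes lower in every knockout. At 2 weeks the sums were 14641 to 22447 CPM, against 52902 to 60632 CPM.

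The constitutive libraries at P0 held most of the changes. By edgeR's quasi-likelihood test with Benjamini-Hochberg adjustment over all genes tested (adjusted p under 0.05), 12 of the 29 genes rose in knockouts and 7 fell, where 21.4% of 18411 genes rose and 20.2% fell. Synthesis enzymes, which are 19 of the 29 genes, made up 10 of the 12 that rose, with Srebf2 and Stard4. The 7 that fell were Mylip, Npc1, Npc2, Soat1, Insig2 and the enzymes Ebp and Dhcr7. The median log2 change was 0.35 over the 29 genes and 0.04 over all genes tested. The plot of log2 changes by gene and comparison shows the column at P0 beside the other ages.

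**Figure D1:**
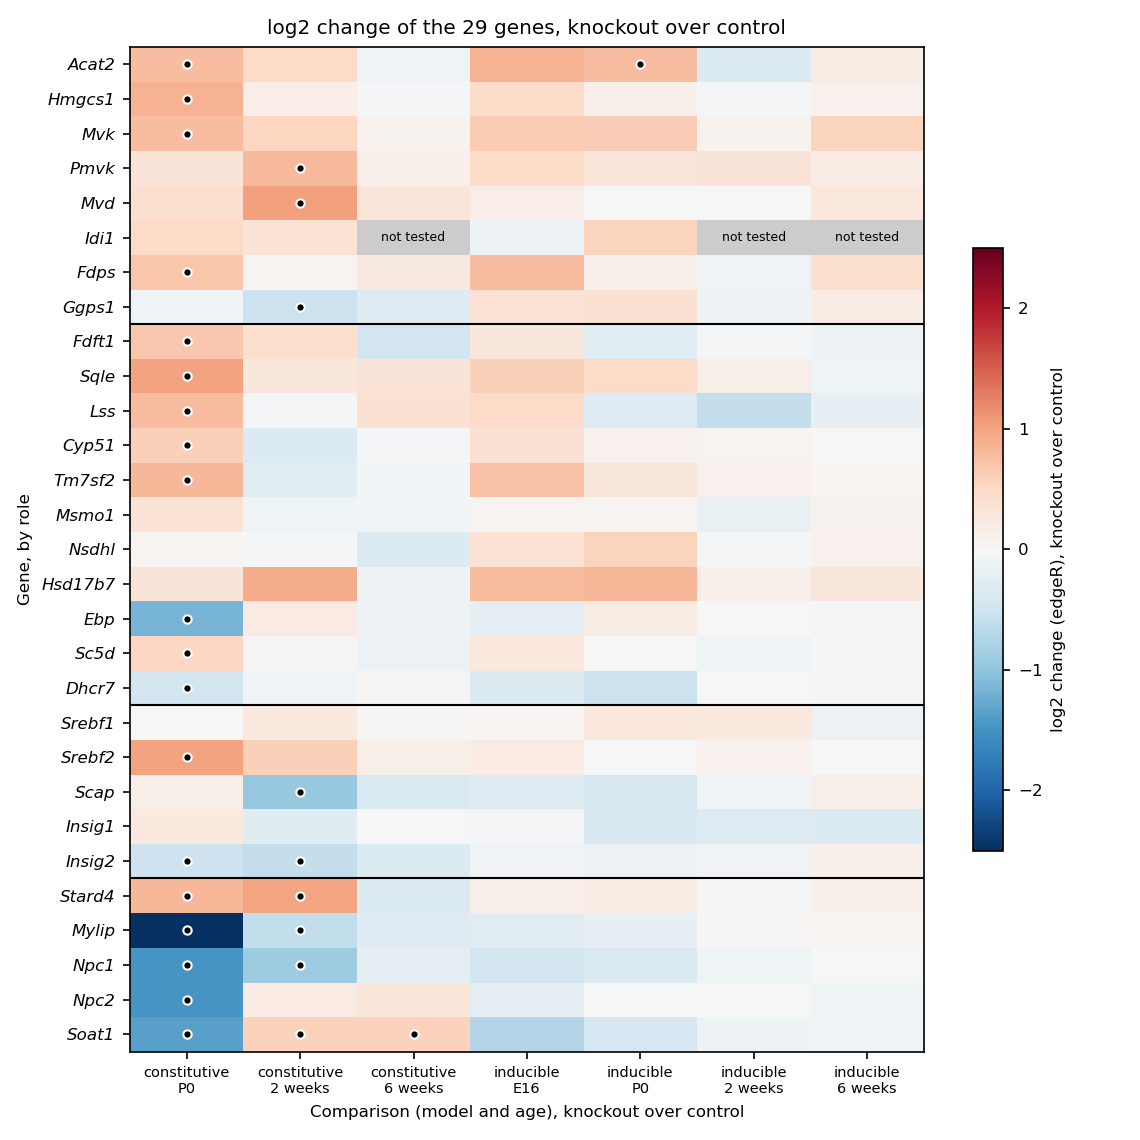
Fitted log2 change (edgeR, knockout over control; red higher, blue lower in knockouts) of the 29 genes, ordered by role with lines between roles, in the 7 knockout comparisons; a dot marks an adjusted p under 0.05. The constitutive P0 column holds 19 dots and the constitutive 2-week column 9, while the 4 inducible columns together hold 1, at Acat2 at P0. Of all genes tested, 21.4% rose and 20.2% fell in constitutive knockouts at P0 and 24.4% and 17.8% at 2 weeks. In inducible knockouts at P0 the shares were 6.81% and 3.56%.

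In the mevalonate arm at P0, 4 of 8 genes rose and none fell. Acat2 (GRCm38, as for all gene positions here; chromosome 17, 12942890 to 12960747, minus strand), the thiolase that joins acetyl-CoA units, was at 72.8, 79.3 and 60.4 CPM in knockouts, against 28.7, 37.4, 30.6 and 33.1 CPM in controls. Each knockout library lay above each control, and the log2 change was 0.77 ± 0.14 (SE, edgeR adjusted p = 0.00125). Hmgcs1 (chromosome 13, 119690379 to 119708260, plus strand), the HMG-CoA synthase of the next step, spanned 342 to 394 CPM in knockouts and 125 to 208 CPM in controls, a log2 change of 0.88 ± 0.15. Mevalonate kinase, Mvk, averaged 28.9 CPM in knockouts and 13.2 CPM in controls (log2 change 0.78 ± 0.18). Farnesyl diphosphate synthase, Fdps, averaged 17.5 CPM in knockouts and 8.44 CPM in controls (0.70 ± 0.23), and its call was lost when any of 5 libraries was left out. Pmvk, Mvd, Idi1 and Ggps1 did not pass, at log2 changes of 0.33, 0.40, 0.50 and -0.11. Acat2, Idi1, Fdps, Ggps1 and Fdft1 have copies of 95% or more identity over at least 500 bases (Acat3 for Acat2, processed pseudogenes for the others), so their counts are uncertain. Of the 29 genes 11 also share exon bases with another gene, whose reads cannot be told apart without strand. The shares were 26.7% in Fdps, 18.3% in Fdft1 (with Ctsb), 13.2% in Scap, and 12.1% in Hmgcs1 and in Tm7sf2. In the others they were at most 9.22%.

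In the squalene and sterol arm at P0, 6 of 11 genes rose and 2 fell. Squalene epoxidase, Sqle (chromosome 15, 59315077 to 59331192, plus strand), the first oxygen-requiring step, spanned 141 to 191 CPM in knockouts and 49.5 to 84.2 CPM in controls, with a log2 change of 1.02 ± 0.16. Lanosterol synthase, Lss, rose by 0.78 ± 0.19, the demethylase Cyp51 by 0.59 ± 0.13, the sterol reductase Tm7sf2 by 0.82 ± 0.20, squalene synthase, Fdft1, by 0.67 ± 0.22 and the desaturase Sc5d by 0.53 ± 0.16. The Fdft1 call was lost when any of 5 libraries was left out, and the Sc5d call when any of 3 was. For each of these 6 genes every knockout library lay above every control. How many of all genes were separated in this way was not counted, here or in the other comparisons. Ebp (chromosome X, 8185329 to 8193512, minus strand), the sterol isomerase between Cyp51 and the final steps, moved the other way: 37.0, 35.0 and 37.3 CPM in knockouts, against 62.5, 57.5, 71.7 and 61.6 CPM in controls, and a log2 change of -1.16 ± 0.14 (adjusted p = 1.36e-04). Dhcr7, a last-step reductase, was called at -0.47 ± 0.15, but its CPM overlapped (32.4 to 40.5 in knockouts, 36.3 to 45.2 in controls), and the call was lost when any of 4 libraries was left out. Msmo1, Nsdhl and Hsd17b7 did not pass, at 0.35, 0.08 and 0.32.

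Among the SREBP genes at P0, Srebf2 (chromosome 15, 82147181 to 82205379, plus strand) rose to 142, 170 and 145 CPM in knockouts, against 51.1, 77.8, 53.6 and 54.4 CPM in controls (log2 change 1.01 ± 0.14). Srebf1, whose products also serve fatty acid synthesis, was at a log2 change of 0.01. Insig2 fell by 0.52 on the log2 scale (SE 0.14), with overlapping levels of 43.0, 50.4 and 41.7 CPM in knockouts and 53.7, 48.8, 44.3 and 54.5 CPM in controls. Scap and Insig1 did not pass, at 0.14 and 0.25.

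The 4 largest falls at P0 were in genes that handle sterol already made or taken up. Npc1 (chromosome 18, 12189692 to 12236400, minus strand), the membrane protein that exports lysosomal cholesterol, was at 81.6, 79.1 and 79.96 CPM in knockouts, against 180, 159, 181 and 174 CPM in controls. That is a log2 change of -1.47 ± 0.12 (adjusted p = 2.13e-05), with no overlap. Its soluble partner Npc2 (chromosome 12, 84754562 to 84773152, minus strand) was at 286, 230 and 242 CPM in knockouts, against 604, 478, 579 and 534 CPM in controls (-1.48 ± 0.16, adjusted p = 5.08e-05). Mylip (chromosome 13, 45389742 to 45412022, plus strand) was at 64.2, 29.6 and 39.7 CPM in knockouts, against 236, 165, 212 and 172 CPM in controls. Its log2 change of -2.50 ± 0.27 (adjusted p = 5.74e-05) was the largest of the 29. Soat1 (chromosome 1, 156424525 to 156474331, minus strand), the enzyme that esterifies cholesterol, was at 96.4, 81.3 and 90.8 CPM in knockouts, against 197, 145, 180 and 196 CPM in controls (-1.37 ± 0.16, adjusted p = 8.49e-05). Stard4 went up, at 16.6 CPM on average in knockouts and 7.23 CPM in controls (0.84 ± 0.30, adjusted p = 0.0417), and its call was lost when any of 5 of the 7 libraries was left out.

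**Figure D2:**
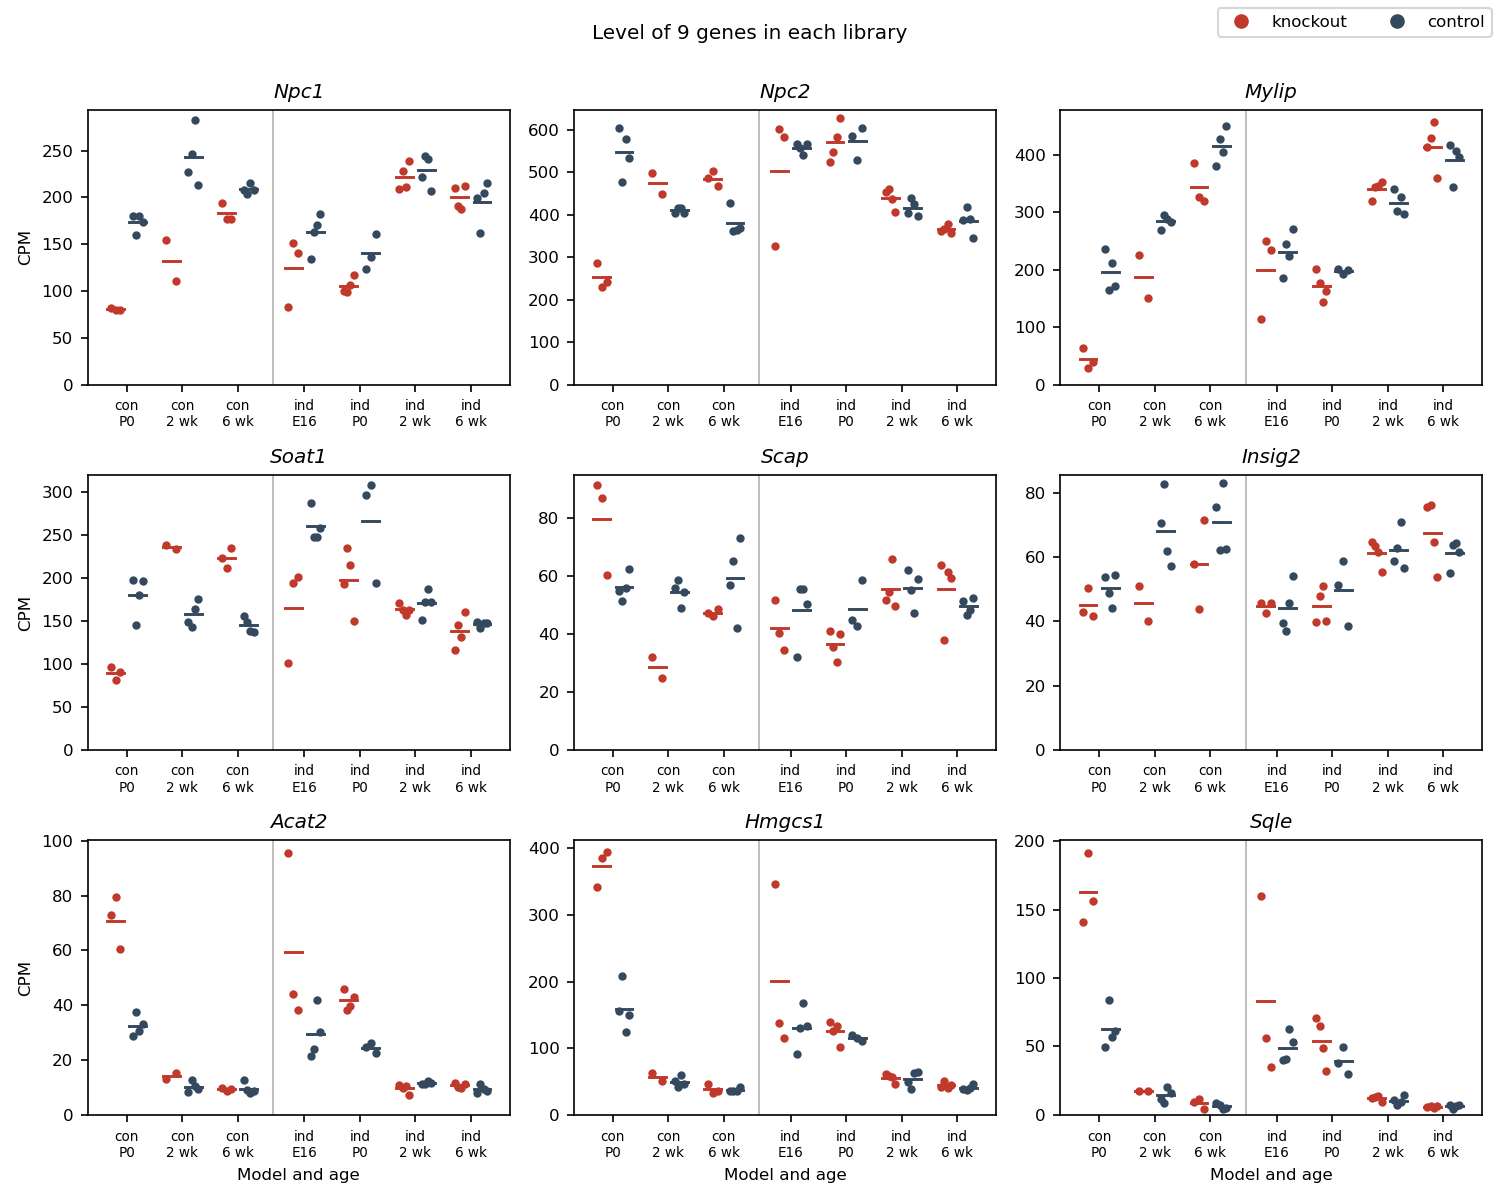
CPM of 9 of the genes in each of the 50 libraries (points) with group means (bars), by model (con, constitutive; ind, inducible) and age, knockout red and left of control. In the constitutive model at P0, Npc1, Npc2, Mylip and Soat1 lie below every control and Acat2, Hmgcs1 and Sqle above every control; Soat1 lies above every control at 2 and 6 weeks.

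Markers of other cells moved with these changes. In the libraries labelled constitutive knockout at P0, all 10 neuron markers, all 8 astrocyte markers, all 10 neutrophil markers, all 7 monocyte markers and all 7 erythroid markers were higher in every knockout than in every control. Summed, neuron markers were at 2656 to 3290 CPM, against 742 to 1618 CPM, astrocyte markers at 3006 to 3337 CPM, against 854 to 1645 CPM, and neutrophil markers at 7230 to 11025 CPM, against 617 to 1523 CPM. Not every list moved whole: 6 of 9 oligodendrocyte lineage markers, 7 of 8 vascular markers and 5 of 7 lymphocyte markers were higher in every knockout. Olig1, of oligodendrocyte precursors, was at 145 to 180 CPM in knockouts, against 31.0 to 56.5 CPM in controls, while the myelin gene Mag was lower, at 2.35 to 3.13 CPM, against 3.59 to 8.07 CPM. Of 6 border macrophage markers none was higher and 3 were lower in every knockout. None of these markers was at 0 in all libraries. The 19 synthesis enzymes summed to 1253 to 1535 CPM in knockouts, against 684 to 935 CPM in controls, and the 5 transport and storage genes to 439 to 540 CPM, against 955 to 1228 CPM. The part of the other cells in the changes of the 29 genes was not tested. In bulk libraries fewer cells of a type and less RNA per cell cannot be told apart.

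**Figure D3:**
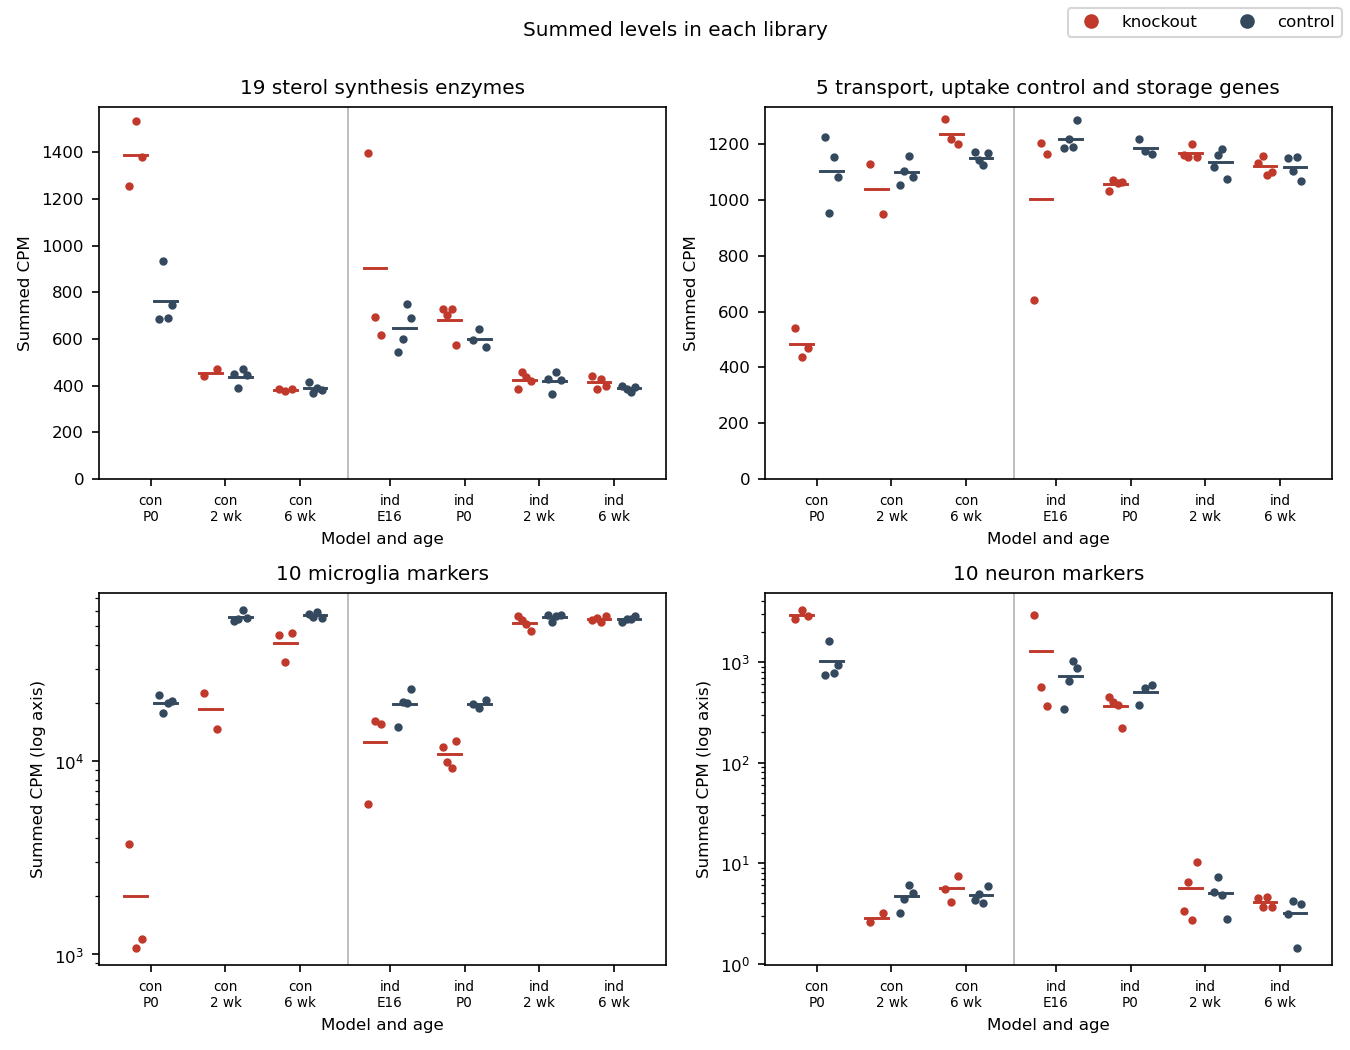
Summed CPM of the 19 synthesis enzymes, the 5 transport and storage genes, 10 microglia markers and 10 neuron markers (log axes for the markers) in each library, knockout red and left of control, bars at group means. The constitutive knockouts at P0 and the E16 library of inducible knockout animal 1 stand high in enzymes and neuron markers and low in microglia markers.

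The scaling between libraries touches the counts at P0. The TMM factors used in the fit differed by 0.36 on the log2 scale between knockouts and controls, so fitted changes are smaller than ratios of CPM for genes that rose. With library totals alone, 17 genes rose and 5 fell, with Dhcr7 and Insig2 no longer called, and the median change of all genes tested moved to 0.40. Of all genes tested in that setting, 34.9% rose and 11.1% fell. One fit over all 14 groups gave 15 and 5, where 3180 of 21417 genes rose and 2766 fell. Each of the other 17 called genes kept its call and direction under both. Without the library labelled knockout animal 68, 12 genes rose and 7 fell, of which 11 and 7 were the same genes, with Msmo1 in place of Fdps. Of all genes tested without it, 17.0% rose and 17.1% fell. Over the 7 libraries left out in turn, 14 to 21 genes were called, with the lowest count without control animal 71, without control animal 74 or without knockout animal 73.

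**Figure D4:**
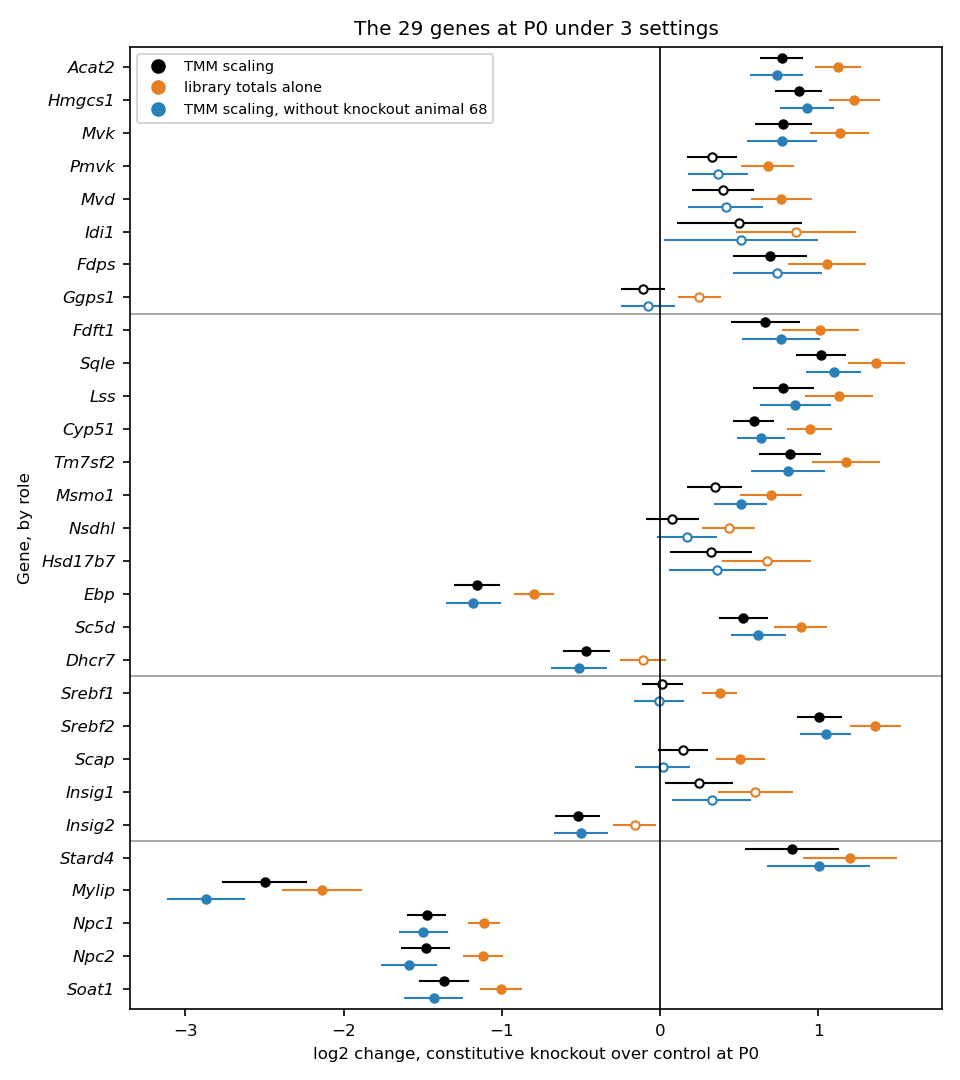
Log2 change (knockout over control, constitutive model at P0) with its SE for the 29 genes under TMM scaling, under library totals alone and without knockout animal 68; filled points have an adjusted p under 0.05. Totals alone move every gene up by about the same amount, so that Dhcr7 and Insig2 lose their call, while Mylip, Npc1, Npc2, Soat1 and Ebp stay below 0 under all 3 settings.

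At 2 weeks in the constitutive model 4 of the 29 genes rose and 5 fell, where 24.4% of 15017 genes tested rose and 17.8% fell. None of the 11 genes of the squalene and sterol arm was called. Scap (chromosome 9, 110333288 to 110384950, plus strand), the escort of the SREBPs, was at 31.8 and 24.9 CPM in knockouts, against 55.7, 58.5, 48.96 and 54.4 CPM in controls, a log2 change of -0.95 ± 0.14 (edgeR adjusted p = 5.76e-04). Of its exon bases 13.2% overlap the gene 5830462I19Rik, whose reads cannot be told apart without strand. Npc1 was at 154 and 110 CPM in knockouts, against 227, 246, 283 and 214 CPM in controls (-0.89 ± 0.16, adjusted p = 0.00155). Mylip was at 225 and 150 CPM in knockouts, against 269, 296, 288 and 283 CPM in controls (-0.62 ± 0.14, adjusted p = 0.00497). Insig2 was at 51.0 and 40.3 CPM in knockouts, against 70.6, 82.9, 61.8 and 57.1 CPM in controls (-0.59 ± 0.17, adjusted p = 0.0172). These 4 genes were lower in both knockouts than in any control. With 2 knockouts against 4 controls, how many of all genes were so separated was not counted.

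Soat1 at 2 weeks lay on the other side of its controls from P0: 238 and 233 CPM in knockouts, against 149, 143, 163 and 176 CPM in controls, a log2 change of 0.58 ± 0.12 (adjusted p = 0.00462). Pmvk and Mvd, kinase and decarboxylase of the later mevalonate steps, rose by 0.80 ± 0.19 and 1.03 ± 0.28. Stard4 rose by 0.98 ± 0.29, and Ggps1, which makes the geranylgeranyl group used on proteins, fell by 0.54 on the log2 scale (SE 0.19). The median log2 change was 0.16 over the 29 genes and 0.002 over all genes tested. Without the library labelled knockout animal 89 these medians were -0.076 and -0.014, and without animal 80 they were 0.225 and -0.0098. Without animal 89 Mvd was at 0.47, and Mvd, Ggps1 and Insig2 lost their calls. The levels of Mvd were 11.4 and 19.5 CPM in knockouts, against 8.80, 8.17, 6.65 and 7.23 CPM in controls. Stard4 lost its call without knockout animal 80, without control animal 77 or 78 and in one fit over all groups. Ggps1 also lost it without control animal 77, 81 or 83 and with library totals alone. Scap, Npc1, Mylip, Soat1 and Pmvk kept theirs under every alternative run.

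Other cells were marked at this age too. Neutrophil markers summed to 17722 to 50358 CPM in knockouts, against 108 to 814 CPM in controls, monocyte markers to 1575 to 3984 CPM, against 18.0 to 77.1 CPM, and border macrophage markers to 1917 to 2600 CPM, against 102 to 158 CPM. Every marker of these 3 lists was higher in both knockouts than in any control. Mitosis genes summed to 1138 to 1145 CPM, against 219 to 265 CPM. Neuron markers were near 0 in both groups, at 2.57 to 3.19 CPM summed in knockouts and 3.20 to 6.03 CPM in controls. The part of the other cells in the changes at 2 weeks was not tested. The 19 enzymes summed to 442 to 470 CPM in knockouts, against 389 to 471 CPM in controls.

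By 6 weeks 1 gene was called in the constitutive model, Soat1, and it rose. Its levels were 223, 211 and 235 CPM in knockouts, against 155, 149, 138 and 138 CPM in controls (log2 change 0.57 ± 0.10, edgeR adjusted p = 0.00325). The call held without the library labelled knockout animal 380, with 1 gene rising and 0 falling, and in each of the other refits, while Scap fell as well without the third of the 4 controls, as listed. Among all 14428 genes tested, 6.76% rose and 5.24% fell, against 4.48% and 3.35% without animal 380. The unadjusted p was under 0.05 for 6 members. Mylip (-0.32 ± 0.11) and Npc1 (-0.24 ± 0.10) had adjusted p of 0.0931 and 0.155. Microglia markers summed to 32459 to 45957 CPM in knockouts, against 54826 to 59209 CPM in controls, and border macrophage markers to 982 to 1568 CPM, against 26.0 to 48.6 CPM; their part in the Soat1 change was not tested.

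In the inducible model the 29 genes gave 1 call in 4 ages. At P0, Acat2 was at 45.9, 38.3, 39.6 and 43.2 CPM in knockouts, against 24.8, 26.1 and 22.7 CPM in controls. Every knockout lay above every control, with a log2 change of 0.78 ± 0.16 (edgeR adjusted p = 0.0117). No member fell, while 6.81% of 17573 genes rose and 3.56% fell. The call was lost without control animal 55, and 2 members were called without knockout animal 53. DESeq2 called 4 genes that rose (with Hsd17b7, Mvk and Nsdhl) and Dhcr7 that fell, and one fit over all groups called Acat2 with falls of Dhcr7, Npc1, Scap and Soat1. Over all genes, DESeq2 had 1679 of 30626 rising and 1215 falling, and the one fit had 1292 of 21417 rising and 1451 falling. Microglia markers summed to 9269 to 12773 CPM in these knockouts, against 18877 to 20655 CPM in controls, and 6 of 10 mitosis genes were higher in every knockout. The share of all genes higher in every knockout was not counted. Neuron markers summed to 219 to 453 CPM in knockouts, against 374 to 592 CPM in controls. The part of either in the level of Acat2 was not tested.

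No member was called at E16, at 2 weeks or at 6 weeks in the inducible model by edgeR. At E16 the shares of all 17594 genes that rose and that fell were each 0%, and 7 members had an unadjusted p under 0.05. DESeq2 called 0 there, and one fit over all groups called 4, with Acat2 and Tm7sf2 up and Npc1 and Soat1 down. In that one fit 564 of 21417 genes rose and 1012 fell, and in DESeq2 345 of 30306 rose and 336 fell. At 2 weeks 1.11% of 13921 genes rose and 1.13% fell, and at 6 weeks 0.0492% of 14217 rose and 0.0141% fell. There, 2 and 0 members had an unadjusted p under 0.05, and DESeq2 called 0 at either age. Idi1 had too few counts to be tested at these ages.

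Npc1, Mylip, Soat1, Acat2, Insig2 and Stard4 each had 2 calls in the same direction, the most of any member. Values in the libraries not yet given follow for the 5 of them with the smallest median adjusted p, which leaves out Stard4. None of these differences was called. Npc1, the lysosomal exporter, had 194, 177 and 177 CPM in constitutive knockouts at 6 weeks, against 208, 203, 215 and 208 CPM in controls. At E16 the inducible knockouts held 82.7, 151 and 141 CPM of Npc1, against 135, 163, 171 and 183 CPM in controls. Npc1 had 99.99, 98.7, 106 and 117 CPM in inducible knockouts at P0, against 124, 136 and 161 CPM in controls. All knockouts lay below all controls at 6 weeks (constitutive) and P0 (inducible), and the groups overlapped at E16 (inducible). At 2 weeks the inducible knockouts held 209, 229, 211 and 239 CPM of Npc1, against 222, 245, 241 and 207 CPM in controls. Npc1 had 210, 191, 188 and 212 CPM in inducible knockouts at 6 weeks, against 199, 162, 204 and 215 CPM in controls. The groups overlapped at 2 weeks (inducible) and 6 weeks (inducible).

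Mylip, the ligase gene, had 387, 327 and 321 CPM in constitutive knockouts at 6 weeks, against 381, 429, 405 and 450 CPM in controls. At E16 the inducible knockouts held 114, 250 and 234 CPM of Mylip, against 186, 244, 224 and 271 CPM in controls. Mylip had 202, 177, 144 and 163 CPM in inducible knockouts at P0, against 201, 192 and 199 CPM in controls. The groups overlapped at 6 weeks (constitutive), E16 (inducible) and P0 (inducible). At 2 weeks the inducible knockouts held 320, 344, 346 and 352 CPM of Mylip, against 341, 303, 326 and 297 CPM in controls. Mylip had 413, 429, 457 and 359 CPM in inducible knockouts at 6 weeks, against 418, 344, 406 and 397 CPM in controls. The groups overlapped at 2 weeks (inducible) and 6 weeks (inducible). Soat1, the esterifying enzyme, had 100, 194 and 201 CPM in inducible knockouts at E16, against 287, 247, 247 and 258 CPM in controls. At P0 the inducible knockouts held 192, 235, 214 and 150 CPM of Soat1, against 296, 308 and 194 CPM in controls. Soat1 had 171, 162, 157 and 163 CPM in inducible knockouts at 2 weeks, against 151, 172, 187 and 172 CPM in controls. All knockouts lay below all controls at E16 (inducible), and the groups overlapped at P0 (inducible) and 2 weeks (inducible). At 6 weeks the inducible knockouts held 116, 145, 131 and 161 CPM of Soat1, against 148, 141, 147 and 147 CPM in controls. The groups overlapped at 6 weeks (inducible).

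Acat2, the thiolase, had 13.3 and 15.5 CPM in constitutive knockouts at 2 weeks, against 8.24, 12.7, 10.7 and 9.51 CPM in controls. At 6 weeks the constitutive knockouts held 9.94, 8.87 and 9.50 CPM of Acat2, against 12.8, 8.99, 8.02 and 8.79 CPM in controls. Acat2 had 95.7, 44.1 and 38.2 CPM in inducible knockouts at E16, against 21.7, 23.9, 41.9 and 30.4 CPM in controls. All knockouts lay above all controls at 2 weeks (constitutive), and the groups overlapped at 6 weeks (constitutive) and E16 (inducible). At 2 weeks the inducible knockouts held 11.0, 9.91, 10.5 and 7.37 CPM of Acat2, against 11.4, 11.4, 12.4 and 11.8 CPM in controls. Acat2 had 11.7, 10.2, 10.0 and 11.3 CPM in inducible knockouts at 6 weeks, against 7.90, 11.2, 9.47 and 8.64 CPM in controls. All knockouts lay below all controls at 2 weeks (inducible), and the groups overlapped at 6 weeks (inducible). Insig2, the retention protein, had 58.0, 44.0 and 71.5 CPM in constitutive knockouts at 6 weeks, against 75.7, 62.1, 83.2 and 62.4 CPM in controls. At E16 the inducible knockouts held 45.7, 42.5 and 45.7 CPM of Insig2, against 39.5, 36.9, 45.6 and 54.1 CPM in controls. Insig2 had 39.9, 48.03, 51.0 and 40.0 CPM in inducible knockouts at P0, against 51.4, 59.0 and 38.6 CPM in controls. The groups overlapped at 6 weeks (constitutive), E16 (inducible) and P0 (inducible). At 2 weeks the inducible knockouts held 64.7, 63.5, 61.6 and 55.3 CPM of Insig2, against 58.7, 62.9, 71.1 and 56.6 CPM in controls. Insig2 had 75.5, 76.3, 64.8 and 53.8 CPM in inducible knockouts at 6 weeks, against 55.02, 63.8, 64.5 and 61.5 CPM in controls. The groups overlapped at 2 weeks (inducible) and 6 weeks (inducible).

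The E16 library labelled knockout animal 1 stood apart from the other 2 knockouts. It held 347 CPM of Hmgcs1, against 139 and 115 CPM in the other 2 knockouts and 90.8 to 168 CPM in controls. Its Sqle was at 160 CPM, against 56.1 and 34.8 CPM, and its Npc2 at 327 CPM, against 602 and 583 CPM. Neuron markers summed to 2916 CPM and erythroid markers to 13344 CPM in it. Without this library no member was called either, while 2.31% of all genes tested rose and 1.24% fell. The log2 change of Hmgcs1 was then -0.07 and that of Sqle -0.14, against 0.46 and 0.59 with it.

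The difference between the models' knockout effects was tested as an interaction at each shared age, constitutive minus inducible. At P0, 3 members were higher and 5 lower in the constitutive effect, where 14% of 19236 genes were higher and 16.9% lower. The higher ones were Lss (1.15 ± 0.39), Srebf2 (1.05 ± 0.21) and Hmgcs1 (0.78 ± 0.20), and the lower ones Mylip (-2.27 ± 0.31), Npc2 (-1.45 ± 0.20), Ebp (-1.30 ± 0.19), Npc1 (-1.05 ± 0.17) and Soat1 (-0.91 ± 0.27). The split depended on the scaling: 7 higher and 5 lower with RLE size factors, 8 and 5 in DESeq2, 6 and 4 in one fit over all groups, 10 and 4 with library totals alone, 8 and 5 without control animal 70, and 5 and 5 without the library labelled knockout animal 68. With library totals alone 19.1% of all genes were higher and 7.74% lower at P0. RLE size factors had 3019 of 19236 genes higher and 2452 lower, DESeq2 3594 of 33476 and 2834, and one fit 1984 of 21417 and 1786. The split of all genes thus moved with the scaling too. Shares in the fits with a library left out are not given. At 2 weeks 3 were higher (Mvd, Acat2 and Soat1) and 4 lower (Scap, Npc1, Mylip and Insig2), where 16.6% of 15965 genes were higher and 14.7% lower. Those counts were 1 and 3 without constitutive knockout animal 89, and 3 and 2 in one fit over all groups. At 6 weeks Soat1 alone was higher (0.69 ± 0.15), none was lower, and the shares of 15492 genes were 2.54% and 2.41%. DESeq2 and the fit without the constitutive control listed after the first each called 2 members there, and one fit over all groups called none. The one fit had 2455 of 21417 genes higher and 1553 lower at 2 weeks. At 6 weeks it had 345 higher and 316 lower, and DESeq2 had 562 of 29116 higher and 542 lower. Without the library labelled knockout animal 380, 1 was higher and 0 lower. The models differ in treatment as well as in Cre, so these cannot be told apart. All 3 interactions use the same libraries as the knockout comparisons.

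Between ages, the constitutive knockout effect at 2 weeks minus that at P0 was higher for 4 members and lower for 4, where 21.7% of 19997 genes were higher and 9.07% lower. Soat1 (1.88 ± 0.21, adjusted p = 8.4e-06 in edgeR), Mylip (1.82 ± 0.33), Npc2 (1.62 ± 0.19) and Ebp (1.29 ± 0.20) were higher, and Tm7sf2 (-1.16 ± 0.31), Scap (-1.16 ± 0.22), Cyp51 (-0.996 ± 0.23) and Hmgcs1 (-0.78 ± 0.23) lower. With library totals alone 4 were higher and 9 lower, where 15.1% of all genes were higher and 12.3% lower. Without the library labelled knockout animal 68, 4 were higher and 5 lower, and without animal 89, 5 were higher and 6 lower. From 2 to 6 weeks the effect was higher for Npc1 (0.65 ± 0.18) and lower for none, with shares of 5.88% and 9.92% of 16043 genes. Without constitutive knockout animal 89 no member was called there, and without animal 80 there were 3. Without the library labelled knockout animal 380, 1 was higher and 0 lower. In the inducible model the effect at 2 weeks minus P0 was lower for Acat2 (-1.06 ± 0.20) and higher for none, with 2.67% of 17914 genes higher and 1.71% lower, and 2 members were called without inducible knockout animal 48. Its effect at 6 minus 2 weeks gave no call among the members, with 0% higher and 0% lower of 15043 genes, and 1 member had an unadjusted p under 0.05. DESeq2 called 0 members there too.

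In control microglia many of these genes changed between P0 and 2 weeks, as did a large share of all genes tested. Whether the set moved more than all genes did was not tested. At 2 weeks against P0, 6 members rose and 12 fell in controls of the constitutive model, where 26.7% of 16346 genes rose and 36.6% fell. In controls of the inducible model 6 rose and 12 fell as well, where 21.9% of 16321 rose and 32.7% fell. The 2 sets of controls share no library, and 9 members fell and 6 rose in both. How many of all genes fell or rose in both sets was not counted, here or from 2 to 6 weeks. Sqle averaged 14.3 ± 5.1 CPM at 2 weeks and 63.0 ± 15 CPM at P0 in the constitutive model's controls (SD, n = 4 each; log2 change -1.83), and 10.5 ± 2.9 CPM (n = 4) and 39.1 ± 9.9 CPM (n = 3) in the inducible model's (-1.67). The other 8 that fell in both were Acat2, Hmgcs1, Pmvk, Mvd, Fdft1, Lss, Cyp51 and Srebf2. Hmgcs1 averaged 50.03 ± 7.3 CPM at 2 weeks, against 159 ± 35 CPM at P0, in controls of the constitutive model (SD, n = 4 each).

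The 6 genes that rose in both were Mylip, Npc1, Ggps1, Insig2, Ebp and Scap. Mylip averaged 284 ± 11 CPM at 2 weeks, against 196 ± 34 CPM at P0, and Npc1 243 ± 30 CPM, against 174 ± 10 CPM, in the constitutive model's controls (SD, n = 4 each). Their log2 changes were 0.82 and 0.78 there, and 0.90 and 0.92 in the inducible model's controls. Over these controls, too, scaling moved the split: totals alone gave 4 rising and 16 falling in the constitutive model and 2 and 16 in the inducible one, and the median change of all genes moved to -0.37 and -0.28, against -0.07 and -0.06. One fit over all groups gave 4 and 12, and 6 and 8, where 3965 of 21417 genes rose and 8109 fell, and 3396 rose and 7243 fell. Of all genes, totals alone had 16.0% rising and 46.5% falling in the constitutive model, and 14.0% and 39.9% in the inducible one. Summed neuron markers were 3.20 to 6.03 CPM at 2 weeks, against 742 to 1618 CPM at P0, in controls of the constitutive model, and summed microglia markers 52902 to 60632 CPM, against 17841 to 22113 CPM. The part of either in the age changes was not tested.

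**Figure D5:**
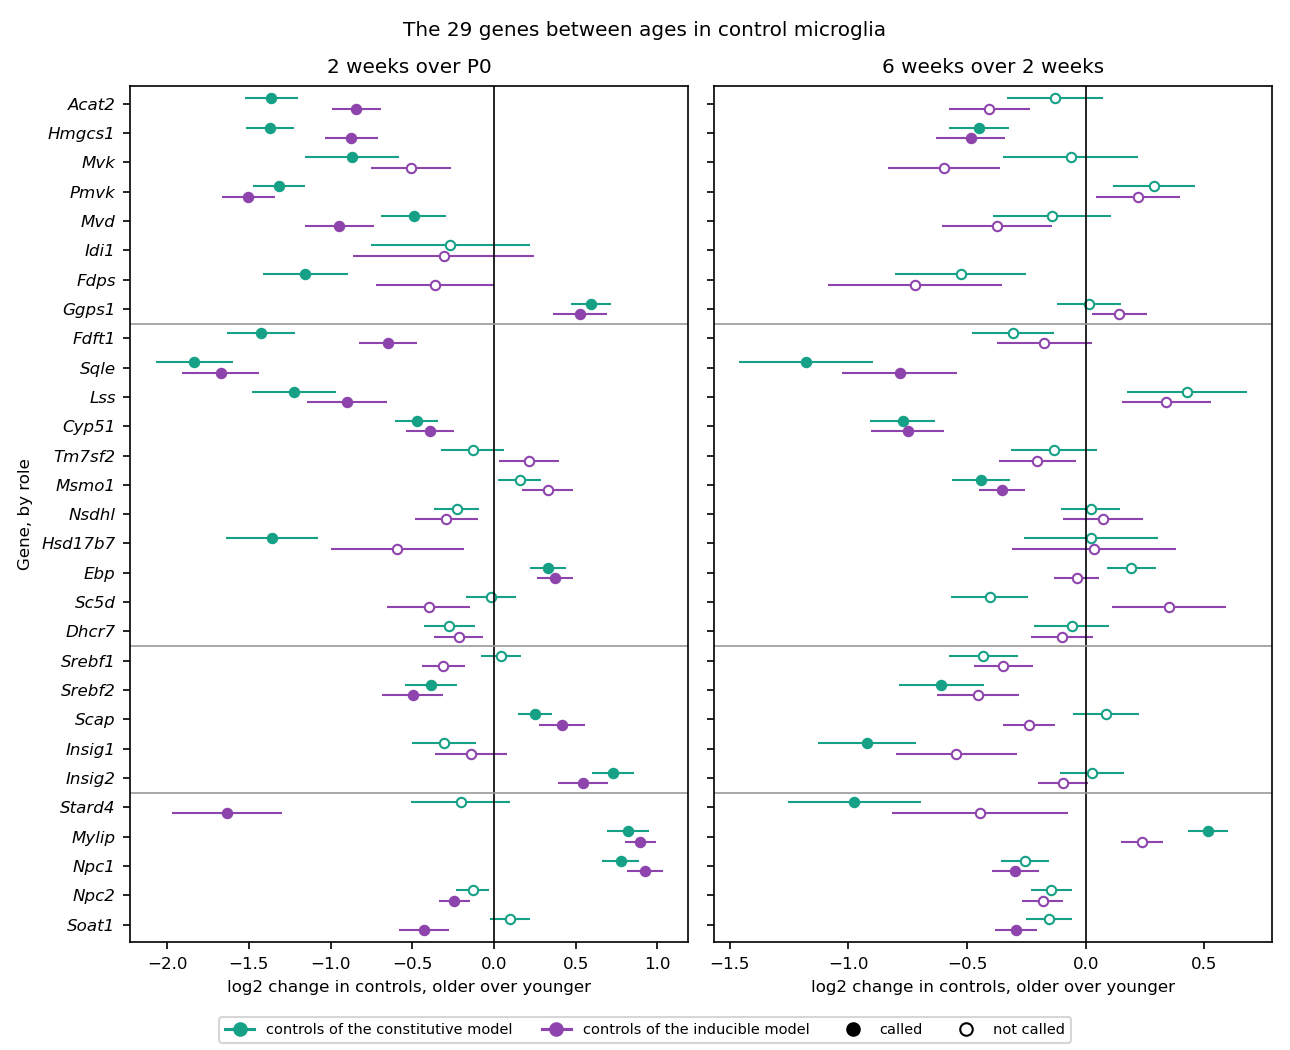
Log2 change with its SE in controls of the constitutive (green) and inducible (purple) model, 2 weeks over P0 at the left and 6 over 2 weeks at the right; filled points have an adjusted p under 0.05. Sqle lies lowest at 2 weeks over P0 in both models (-1.83 and -1.67) and falls again at 6 weeks, while Mylip and Npc1 lie to the right of 0 at 2 weeks.

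From 2 to 6 weeks, 1 member rose and 7 fell in controls of the constitutive model, where 8.8% of 13892 genes rose and 8.93% fell. In the inducible model's controls none rose and 6 fell, where 8.13% of 14025 rose and 8.98% fell. Sqle (-1.18 and -0.78), Cyp51 (-0.77 and -0.75), Hmgcs1 (-0.45 and -0.49) and Msmo1 (-0.44 and -0.35) fell in both. Mylip rose by 0.52 in the constitutive model's controls, where Insig1, Srebf2 and Stard4 also fell. Npc1 and Soat1 fell in the inducible model's. The calls were sensitive: one fit over all groups gave 1 rise and 3 falls in the first and 0 and 1 in the other, totals alone gave 1 and 1 in the inducible model's controls, and totals of 5 to 9 and 2 to 5 calls were left when single libraries were left out. The first total was 5 without animal 77 or 83 (2 weeks) or the 6-week control listed first, and the other was 2 without animal 4 (2 weeks) or 10 (6 weeks) and 3 without animal 1 (6 weeks). With totals alone 10.9% of all genes rose and 6.35% fell from 2 to 6 weeks in the inducible model's controls. In one fit over all groups 823 of 21417 genes rose and 865 fell in the constitutive model's controls, and 700 and 825 in the inducible model's. Between E16 and P0 in controls of the inducible model, no member was called by edgeR or by DESeq2, 1 had an unadjusted p under 0.05, and 0.0464% of 17251 genes rose and 0.0116% fell.

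Levels between genes can be set side by side only per length. Per kilobase of the deposited gene length, Npc2 was the most abundant of the 29 in the mean over the 14 groups (139 CPM per kb), ahead of Mylip (87.2), Hmgcs1 (32.8), Ebp (29.1) and Soat1 (18.5). The order of the first 2 differed between groups: Mylip was above Npc2 in 3 of the 14, at 135 and 112 CPM per kb in inducible knockouts at 6 weeks, 128 and 118 in their controls, and 136 and 117 in constitutive controls at 6 weeks. Idi1 was the lowest at 0.27 CPM per kb, below Fdps (1.18), Stard4 (1.24) and Lss (1.29). Sqle spanned the most between group means, 29.3 CPM per kb in constitutive knockouts at P0 and 1.09 CPM per kb in inducible knockouts at 6 weeks, a ratio of 26.9. Insig2 spanned the least, a ratio of 1.61, next to Ggps1 at 1.82 and Dhcr7 at 1.88. Over the 7 knockout comparisons 23 of the 29 genes were called at least once, with 29 calls in the constitutive model and 1 in the inducible one. Of all genes tested in the constitutive model, 21.4% rose and 20.2% fell at P0. The shares there were 24.4% and 17.8% at 2 weeks, and 6.76% and 5.24% at 6 weeks. In the inducible model the largest shares were 6.81% and 3.56%, at P0. Hsd17b7, Idi1, Insig1, Msmo1, Nsdhl and Srebf1 were never called. Npc1, Mylip, Insig2, Soat1, Acat2 and Stard4 were called in the same direction at more than 1 point. Soat1 was also called the other way, falling in the constitutive model at P0. Among these repeats, calls of Insig2, Stard4 and Acat2 were lost in some of the settings given above.

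Lists of neighbouring genes were read in the same fits. Of 9 LXR and efflux genes, 1 rose and 5 fell in the constitutive model at P0, where 21.4% of all genes tested rose and 20.2% fell. Abca1, the pump that loads cholesterol onto lipoproteins, averaged 286 CPM in knockouts and 1073 CPM in controls (-2.27 ± 0.21), its partner Abcg1 65.9 and 213 CPM (-2.05 ± 0.22), and Lpcat3, a phospholipid acyltransferase, 90.6 and 236 CPM (-1.74 ± 0.15). Of 11 fatty acid synthesis genes 7 rose and 1 fell, and of 9 other genes of sterol synthesis and SREBP processing 5 rose and 2 fell. At 2 weeks, where 24.4% of all genes tested rose and 17.8% fell, 5 of 9 LXR and efflux genes rose and 1 fell. Of 10 fatty acid genes tested 3 rose and 1 fell, and of 8 other sterol genes 2 rose and 3 fell. Ch25h, the enzyme that makes an oxysterol from cholesterol, had 53.3 and 54.7 CPM in knockouts at 2 weeks, against 0, 0, 0.314 and 0.325 CPM in controls, and Lpcat3 fell by 1.20 on the log2 scale. At 6 weeks, where 6.76% of all genes rose and 5.24% fell, 3 of 9 LXR and efflux genes rose and 1 fell, 1 of the other sterol genes rose and no fatty acid gene was called. Ch25h had 47.7, 35.4 and 10.3 CPM in knockouts, against 0.625, 1.16, 0.428 and 0.200 CPM in controls, while Smpdl3a (1.08 ± 0.11) and Cyp27a1 (1.01 ± 0.16) rose as well. At P0 in the inducible model Abca1 fell (-0.77 ± 0.17, edgeR adjusted p = 0.0148), the only call of the 3 lists there, where 6.81% of all genes rose and 3.56% fell, and at E16, 2 weeks and 6 weeks the lists gave none. The marker sums given above for each group stand beside these values too.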

How the data were processed

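RNA-seq counts of sorted microglia were used. Per the labels, amplified total RNA was made into Nextera XT libraries, a method that does not mark strand. Per the submitters' processing notes, the tools were CASAVA 1.8.2, STAR 2.5.2b, featureCounts 1.5.1 of Subread and limma 3.28.21, with build GRCm38, and no source used here gives the annotation release. The authors deposited raw counts per gene and a CPM table, which was checked to equal each count over its library total. The authors' deposited log2 table was not used.

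Ensembl identifiers were matched to symbols by a name table (48058 of 48526 genes), and locations and exon overlaps came from GENCODE vM21 on GRCm38. Near-identical transcripts were sought with blastn (95% identity over 500 bases). Groups follow model, genotype and age in the labels. Animal numbers name replicates. The labels do not say whether animals shared a litter, so the animals may not be independent. The p-values treat them as independent and measure only the spread between these animals.

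Only the groups compared entered each fit, made with edgeR 4.0.16 under R 4.3.3 (filterByExpr, TMM, glmQLFit with robust = TRUE), with group as the only term and p adjusted over all genes tested. For genes that did not pass filterByExpr no test is given. Differences of effects were interaction terms. Each SE was obtained by dividing the size of the log2 change by the root of its F value. The scripts were tested on simulated data. Alternatives were RLE size factors, no filter, DESeq2 1.42.0, one fit over all 14 groups, each library left out, and, chosen after seeing the data, library totals alone.

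The members and lists were chosen with earlier results of these data known, so counts describe them and no list was tested as a set. By the naming rule, values in every library are given for 5 members called in the same direction in the most knockout comparisons (6 tied at 2 calls, and the smaller median adjusted p decided) and for up to 4 called members per comparison with the smallest adjusted p. Other members are given by ranges, means or changes. Values in single libraries of Ebp, Srebf2, Insig2 at P0, Mvd and the E16 library apart (Hmgcs1, Sqle, Npc2) were added after their values were seen. Genes outside the set were named from the pathway lists, up to 3 per comparison.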

Additional observations from a re-analysis of the deposited data

Results flagged for a closer look

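A library stood far from the other 3 of its group, by the ratio of its gap to the group's range, in 16 of the 261 groups of 4 libraries examined (29 genes in 9 groups), and chance gives such a ratio in about 1 group of 20. Among constitutive-model controls at P0, Cyp51 in animal 70 was at 88.0 CPM against 61.3 to 64.8 CPM in the other 3, Hsd17b7 in animal 70 was at 22.7 CPM against 10.8 to 11.8 CPM in the other 3 and Srebf2 in animal 70 was at 77.8 CPM against 51.1 to 54.4 CPM in the other 3. Among inducible knockouts at P0, Dhcr7 in animal 48 was at 25.6 CPM against 19.6 to 20.4 CPM in the other 3, Fdft1 in animal 57 was at 7.04 CPM against 14.5 to 16.0 CPM in the other 3 and Pmvk in animal 53 was at 39.5 CPM against 31.0 to 31.5 CPM in the other 3. Among inducible-model controls at 6 weeks, Ebp in animal 5 was at 66.5 CPM against 73.8 to 74.5 CPM in the other 3. Among constitutive-model controls at 2 weeks, Fdps in animal 83 was at 2.52 CPM against 3.20 to 3.33 CPM in the other 3 and Mvk in animal 77 was at 10.1 CPM against 3.97 to 4.71 CPM in the other 3. Among inducible-model controls at 2 weeks, Ggps1 in animal 3 was at 47.4 CPM against 36.2 to 37.7 CPM in the other 3 and Srebf1 in animal 3 was at 31.7 CPM against 42.0 to 43.4 CPM in the other 3. Among constitutive-model controls at 6 weeks, Hmgcs1 in animal 400 was at 42.6 CPM against 35.3 to 36.3 CPM in the other 3 and Npc2 in the control with the lowest animal number was at 427 CPM against 361 to 368 CPM in the other 3. Among inducible knockouts at 6 weeks, Insig1 in animal 9 was at 7.73 CPM against 6.31 to 6.38 CPM in the other 3, Nsdhl in animal 4 was at 28.7 CPM against 18.1 to 19.7 CPM in the other 3 and Tm7sf2 in animal 4 was at 9.66 CPM against 12.9 to 13.5 CPM in the other 3. Constitutive-model control animal 70 at P0 was the high library for 3 genes, and its summed neuron markers, 1618 CPM, were the highest of its group; their part in these values was not tested.

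The knockout effect differed between models or ages for 26 combinations of gene and contrast by edgeR interaction terms (adjusted p under 0.05, log2 scale). The constitutive minus inducible knockout effect at P0 was 0.78 for Hmgcs1, 1.15 for Lss, -1.30 for Ebp, 1.05 for Srebf2, -2.27 for Mylip, -1.05 for Npc1, -1.45 for Npc2 and -0.91 for Soat1. The constitutive minus inducible knockout effect at 2 weeks was 0.83 for Acat2, 1.02 for Mvd, -0.88 for Scap, -0.51 for Insig2, -0.66 for Mylip, -0.80 for Npc1 and 0.70 for Soat1. The constitutive minus inducible knockout effect at 6 weeks was 0.69 for Soat1. The constitutive knockout effect at 2 weeks minus P0 was -0.78 for Hmgcs1, -0.996 for Cyp51, -1.16 for Tm7sf2, 1.29 for Ebp, -1.16 for Scap, 1.82 for Mylip, 1.62 for Npc2 and 1.88 for Soat1. The constitutive knockout effect at 6 minus 2 weeks was 0.65 for Npc1. The inducible knockout effect at 2 weeks minus P0 was -1.06 for Acat2. The models differ in Cre and in tamoxifen together, so these cannot be told apart, and the summed microglia markers of the constitutive knockouts at P0 and 2 weeks were below those of every control.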

How the results depend on the processing

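No called change of a member turned its direction in any setting: of 201 values with 1 library left out 169 kept the call and 32 lost it, and of 150 values under the other settings 143 kept it and 7 lost it. The cause of the changed counts below was not tested, and the numbers of all genes called changed with these settings as well. With DESeq2 the members called were 5 in inducible knockouts at P0 (against 1 in edgeR) and 13 in the constitutive minus inducible effect at P0 (8). They were 2 in that effect at 6 weeks (1). The constitutive effect at 6 minus 2 weeks had 3 (1), and the inducible effect at 2 weeks minus P0 had 2 (1). Of all genes, in the same order, DESeq2 had 1679 of 30626 rising and 1215 falling, then 3594 of 33476 and 2834. It then had 562 of 29116 and 542, 1306 of 28914 and 2002, and 931 of 31896 and 669. One fit over all groups called 4 in inducible knockouts at E16 (0), 5 at P0 (1) and 0 in the model difference at 6 weeks (1). It called 2 in the constitutive effect at 6 minus 2 weeks (1). At 6 against 2 weeks it called 4 in controls of the constitutive model (8) and 1 in those of the inducible model (6). Of 21417 genes, in the same order, it had 564 rising and 1012 falling, then 1292 and 1451, and 345 and 316. After these came 642 and 1749, 823 and 865, and 700 and 825. Library totals alone, chosen after seeing the data, called 14 in the model difference at P0 (8) and 13 in the constitutive effect at 2 weeks minus P0 (8). In inducible-model controls at 6 against 2 weeks they called 2 (6). Of all genes, in that order, 19.1% rose and 7.74% fell, then 15.1% and 12.3%, and 10.9% and 6.35%.

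With each library left out in turn, calls ran from 14 to 21 in constitutive knockouts at P0, 8 to 10 at 2 weeks and 1 to 2 at 6 weeks. They ran from 0 to 2 in inducible knockouts at P0 and stayed at 0 at E16, 2 weeks and 6 weeks. The model difference gave 6 to 13 at P0, 4 to 9 at 2 weeks and 1 to 2 at 6 weeks. The constitutive effect gave 8 to 11 at 2 weeks minus P0 and 0 to 3 at 6 minus 2 weeks, and the inducible effect 1 to 2 and 0 to 0. Controls gave 14 to 17 and 12 to 17 at 2 weeks against P0, 5 to 9 and 2 to 5 at 6 against 2 weeks, and 0 to 0 at P0 against E16. A group left with 1 library was assumed to vary like the others. No paired analysis was possible because the animal numbers name different animals and the groups compared share no pairs. Totals of 11050277 to 29651179 counts limit low genes most, such as Idi1, and the 2 constitutive knockouts at 2 weeks limit every call there.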
